A study of Mus musculus with 6 samples.

Results

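The collagen family was described in 6 mouse RNA sequencing libraries, as the 44 protein-coding genes whose symbol reads Col, a type number, the letter a and a chain number. They were found among 38561 gene IDs in the deposited count tables, of which 21186 were protein-coding in the GENCODE M21 annotation of GRCm38. The members were grouped by class as 11 fibrillar, 9 basement membrane, 9 FACIT (fibril-associated), 8 beaded, 3 network and 4 transmembrane genes. No measured value was used to choose them.

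The study asked whether mesenchymal tumours can derive from pericytes, the contractile cells around small vessels. All 6 libraries came from NG2-Cre;p53flox/flox mice of mixed background, so the controls carry the same alleles as the tumours. In this strain Cre is expressed from the promoter of the NG2 gene Cspg4, and it cuts out the floxed stretch of Trp53, a tumour suppressor gene, in cells that have expressed NG2. The NG2 cells, labelled normal, were perivascular cells sorted out of skeletal muscle with an antibody to NG2 (2 libraries). The osteosarcomas were taken whole from the right tibia (replicate 1) and the lumbar spine (replicate 2). The soft tissue sarcomas were 2 tumours of subcutaneous tissue. Ages were not in the labels, and neither was it said whether the libraries of a group came from separate animals, so a p-value covers only the spread between the libraries. Only the NG2 cells were sorted, and the tumours still hold host cells. In bulk samples such as these, fewer cells of a type and less RNA per cell cannot be told apart.

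Collagens are secreted trimers of alpha chains wound into a helix, and each gene encodes 1 chain. Fibrillar collagens (types I, II, III, V, XI, XXIV and XXVII) form the cross-linked fibres of bone, cartilage, tendon and dermis. Type I is the main protein of bone, type II that of cartilage, and types V and XI sit inside the fibres and set their diameter. Basement membrane collagens (type IV above all) form sheets under epithelia and around vessels, which pericytes share with the endothelium. FACIT collagens bind to the surface of fibres, beaded type VI forms microfilaments around cells, network collagens form hexagonal lattices, and transmembrane collagens are anchored in the cell membrane.

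Counts on genes ranged from 27693585 to 58126832 per library. Trp53, the floxed gene, stood at 101 and 82.3 CPM (normalised read counts, scaled to a common library size) in the NG2 cells, 24.3 and 32.6 in the osteosarcomas, and 31.2 and 27.3 in the soft tissue sarcomas. Cspg4 stood at 38.6 and 30.6 CPM in the NG2 cells, which was not above the tumours (37.7 to 188 CPM). The 13 lymphocyte markers summed to 9630 and 4650 CPM in the NG2 cells and to between 56.9 and 165 in the tumours, with the B cell gene Cd79a at 1871 and 524 CPM in the NG2 cells. The 14 pericyte and mural cell markers all reached 1 CPM in the NG2 cells, the spine osteosarcoma and both soft tissue sarcomas, and 11 did in the tibia tumour. They summed to 1150 and 1830 CPM in the NG2 cells and 694 to 1840 in the tumours. Of these 14 markers, 2 fell in each tumour type (Rgs5 and Myh11) and 3 rose in osteosarcoma. Over all genes tested, 10.5% rose and 11% fell in osteosarcoma, and 9.89% rose and 9.4% fell in soft tissue sarcoma. Endothelial markers (summed 1730 and 2980 CPM) and Schwann cell markers (595 and 618) were present in the NG2 cells too. All 13 tested lymphocyte markers fell in both tumour types, and the part of these other cells in the collagen differences was not tested. Each group also had a flow cell lane of its own, so lane and group cannot be told apart.

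The type IV collagen genes Col4a1 and Col4a2 lie head to head on chromosome 8 with start sites 21 bases apart in GENCODE M21, and their first exons share 22 bases. Their promoters are printed because the genes share a control region and are compared as partner chains, and that of Col1a2 because its counts ranked among the top 3 genes in both osteosarcomas. Each stretch runs from 250 bases before to 50 after the gene's start in RefSeq, 300 bases of the mouse build GRCm38.p6, 5′ to 3′ on the gene's strand. Capitals mark the CCAAT box (CCAAT, or ATTGG where it lies on the other strand).
Col1a2 (chr6:4505368-4505667, plus strand): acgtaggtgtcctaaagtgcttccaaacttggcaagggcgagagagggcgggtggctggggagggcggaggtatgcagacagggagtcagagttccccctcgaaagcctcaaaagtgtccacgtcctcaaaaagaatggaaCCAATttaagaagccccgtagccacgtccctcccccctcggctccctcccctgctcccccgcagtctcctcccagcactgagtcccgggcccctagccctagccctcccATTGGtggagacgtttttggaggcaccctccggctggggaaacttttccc
Col4a1 (chr8:11312777-11313076, minus strand): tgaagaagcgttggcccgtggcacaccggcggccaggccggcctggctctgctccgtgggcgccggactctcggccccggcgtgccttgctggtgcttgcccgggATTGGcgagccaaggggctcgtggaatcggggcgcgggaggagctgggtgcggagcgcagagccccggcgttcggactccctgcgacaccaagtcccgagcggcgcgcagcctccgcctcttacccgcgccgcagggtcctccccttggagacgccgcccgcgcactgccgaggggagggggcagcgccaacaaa
Col4a2 (chr8:11312555-11312854, plus strand): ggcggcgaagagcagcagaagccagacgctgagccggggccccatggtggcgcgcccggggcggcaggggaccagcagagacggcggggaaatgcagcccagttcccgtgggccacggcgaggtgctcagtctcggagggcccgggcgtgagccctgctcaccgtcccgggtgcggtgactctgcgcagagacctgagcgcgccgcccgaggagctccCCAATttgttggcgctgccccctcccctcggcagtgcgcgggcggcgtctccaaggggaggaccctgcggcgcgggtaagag
The Col4a1 and Col4a2 windows share 78 bases, read from opposite strands. The Col1a2 window held 2 CCAAT boxes, 1 of them starting at the RefSeq start site itself. Those of Col4a1 and Col4a2 held 1 each. The Col1a2 window lies inside the gene span of GENCODE M21, which starts at 4504814, so the RefSeq and GENCODE starts of this gene differ. A CCAAT box on either strand was present in 34.2% of 38 collagen windows (13 of 35 genes with a window) and in 37.4% of 32851 windows of the same length. GC boxes (GGGCGG, or CCGCCC on the other strand) were in 60.5% of the collagen windows and 35.7% of all windows, and TATA boxes (TATAAA, or TTTATA) in 13.2% and 13.6%. Matches of different motifs shared bases in 0.405% of all windows (133) and in 0 of the collagen windows. These are matches of letters and were compared with no test.

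Collagen genes took a small share of the RNA counts in NG2 cells and a large one in the tumours. They held 0.0424% (95% Wilson interval 0.0417 to 0.043) and 0.0395% (0.0389 to 0.0401) of the counts on genes in the NG2 cells. The share was 7.14% (7.14 to 7.15) and 5.28% (5.27 to 5.28) in the osteosarcomas, and 1.22% (1.21 to 1.22) and 0.97% (0.967 to 0.974) in the soft tissue sarcomas. The groups did not overlap. The libraries were amplified without molecular identifiers, so such intervals cover counting error only.

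The mixture of types differed as well. Type IV chains gave 30.6% and 41.3% of all collagen counts in the NG2 cells, 0.336% and 1.26% in the osteosarcomas, and 4.58% and 5.35% in the soft tissue sarcomas. Type I chains gave 31.3% and 20%, 92.7% and 71.5%, and 48.9% and 46.3% in the same order. Type III gave 20.4% and 20% in soft tissue sarcoma against 0.0909% and 3.22% in osteosarcoma. Type IV was thus highest in the NG2 cells, type I in the osteosarcomas and type III in the soft tissue sarcomas, each without overlap. Per kilobase of all annotated exons, the highest member was Col4a2 in both NG2 cell libraries (12 and 14.4 CPM per kb) and Col1a1 in all 4 tumours (271 to 4906). With the longest coding transcript as length, Col1a2 was highest in the tumours and in NG2 cell replicate 1, and Col4a2 in replicate 2, so which chain leads depends on the length used. By counts, Col1a1 ranked 2 among all genes in both osteosarcomas, 25 and 38 in the soft tissue sarcomas, and 4577 and 7380 in the NG2 cells.

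**Figure D1:**
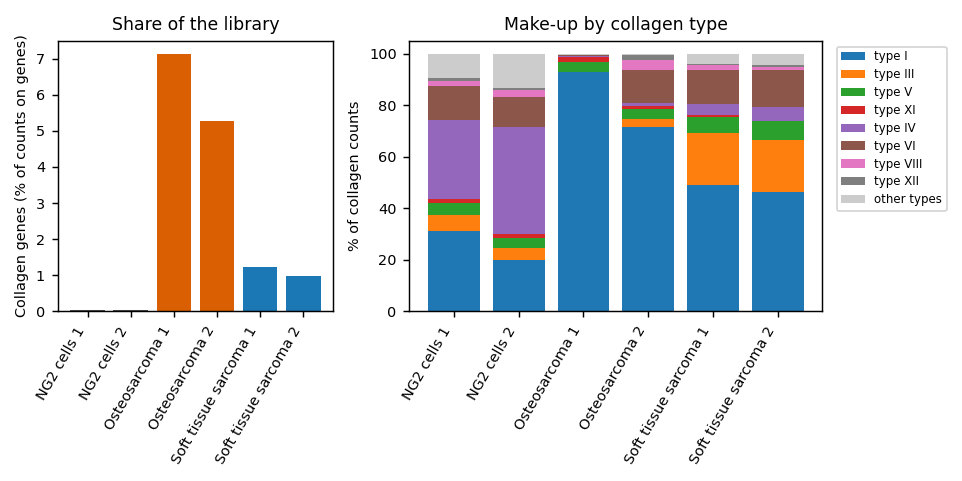
Left, the percent of counts on genes that fell on the 44 collagen genes in each of the 6 libraries, as bars from 0. Right, the percent of those collagen counts given by each collagen type: type I fills 92.7% and 71.5% of the osteosarcoma bars, and type IV 30.6% and 41.3% of the NG2 cell bars.

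Of the 44 members, 42 passed the filter on low counts and were tested, and the filter lets in a gene that is high in only 1 group, among collagens and other genes alike. In osteosarcoma against NG2 cells, 16 members rose, 3 fell and 23 were not called (edgeR, Benjamini-Hochberg adjusted p under 0.05), so 45.2% of the tested members were called beside 21.5% of all 19024 genes tested. The share called higher was 38.1% of members beside 10.5% of all genes, that called lower 7.14% beside 11%, and the median log2 fold change was 3.05 beside 0.04 over all genes. The groups' libraries did not overlap for 26 of the 42 tested members higher and 7 of the 42 lower, beside 32.7% and 32.4% of all genes. All 11 fibrillar genes were tested and 8 rose, as did 3 of 9 FACIT genes, 3 of 7 beaded genes, Col8a2 of the 2 network genes and Col25a1 of the 4 transmembrane genes. The members that fell were Col4a3 (basement membrane), Col6a4 (beaded) and Col17a1 (transmembrane). Leaving out either NG2 cell library left 8 calls, in both cases of Col1a1, Col1a2, Col4a3, Col5a1, Col5a2, Col8a2, Col22a1 and Col24a1. Without soft tissue sarcoma replicate 1 or 2, which lend only their spread to this fit, 12 and 11 members were called. The fold of 12 of the 19 called members moved by over 1.5 times without at least 1 library: Col2a1, Col6a1, Col6a2, Col6a3, Col6a4, Col11a2, Col12a1, Col22a1 and Col25a1 without an osteosarcoma, and Col1a1, Col5a1, Col6a1, Col8a2, Col22a1 and Col25a1 without an NG2 cell library. Of these members, Col2a1, Col6a4 and Col22a1 held 3 counts or fewer in 1 of the groups compared. Col8a2 and Col25a1 had 0 counts in NG2 cell replicate 2. Their folds in such fits depend on the count floor. No change turned a direction.

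When the soft tissue sarcomas were set against the NG2 cells, 14 members rose, 1 fell and 27 were not called, 35.7% of the tested members beside 19.3% of all genes tested. The share called higher was 33.3% beside 9.89%, that called lower 2.38% beside 9.4%, and the median log2 fold change was 3 beside 0. Libraries did not overlap for 26 of the 42 tested members higher and 9 of the 42 lower, beside 35.8% and 34.6% of all genes. Here 7 of 11 fibrillar genes rose, with 2 of 9 basement membrane, 3 of 9 FACIT, 1 of 7 beaded and 1 of 2 network genes, while Col4a3 fell. These calls rest on each library of the group: with either soft tissue sarcoma library left out, edgeR lost the calls of collagens and other genes alike. Without an NG2 cell library 7 and 5 members were called, and without either osteosarcoma 26. By DESeq2 on all libraries, 27 members were called. The last section gives the counts over all genes for DESeq2 and, as a range, for the fits without 1 library. The fold moved by over 1.5 times for 7 of the 15 called members, Col1a1, Col5a1, Col7a1, Col8a2, Col14a1, Col16a1 and Col22a1, in each case without an NG2 cell library. Some of these lay near the count floor in the NG2 cells: Col22a1 at 0 and 1 counts, Col8a2 at 6 and 0, and Col7a1 at 1 and 21. For Col5a1 the log2 rise was 7.17 without NG2 cell replicate 1 and 5.36 without replicate 2, against 5.99 with both. The same NG2 cells served as controls in both comparisons, so the tumour types are set side by side below without a measure of overlap.

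**Figure D2:**
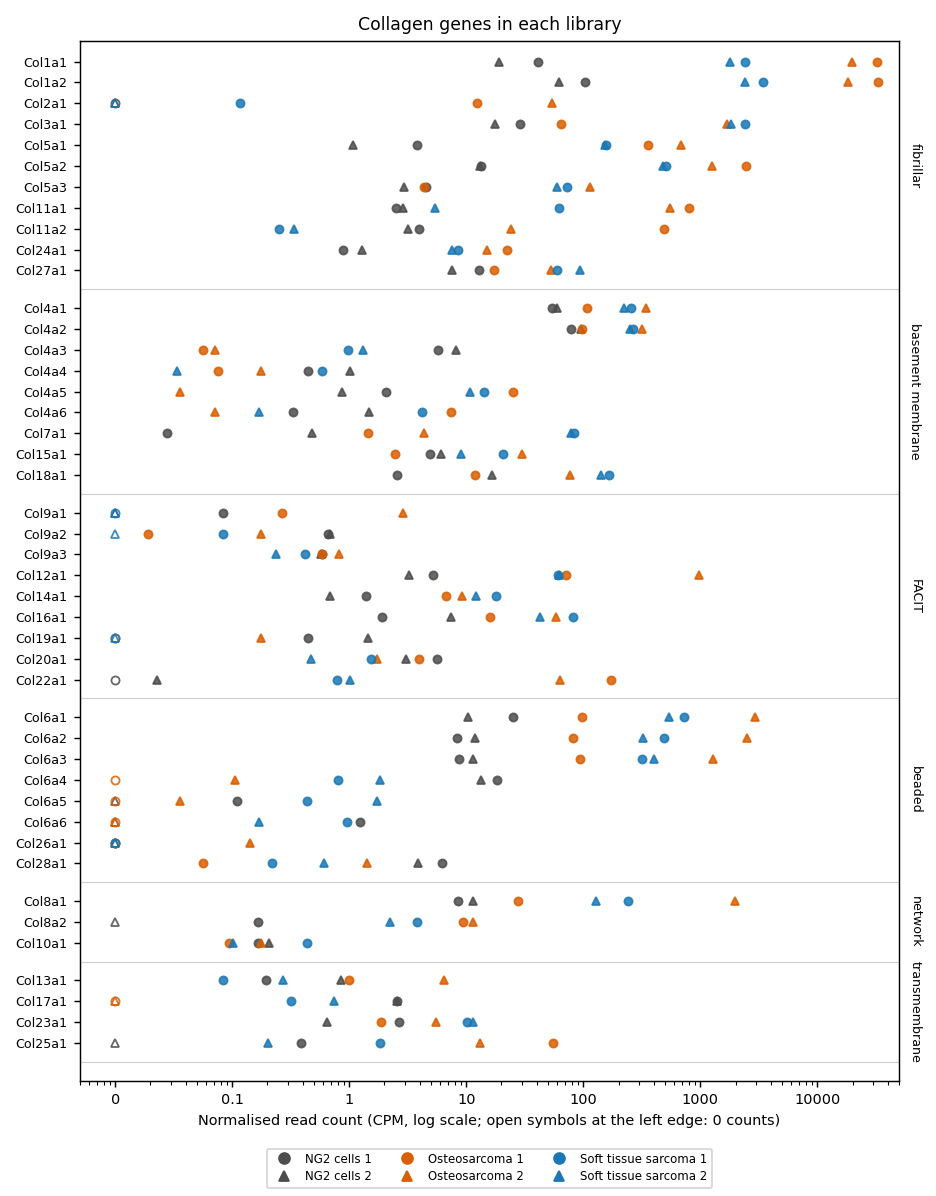
Normalised read count (CPM, log axis) of the 44 collagen genes by class, with 1 symbol per library and open symbols at the left edge for 0 counts. Col1a1 and Col1a2 lie between 18091 and 33134 CPM in osteosarcoma and at or below 104 CPM in the NG2 cells.

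**Figure D3:**
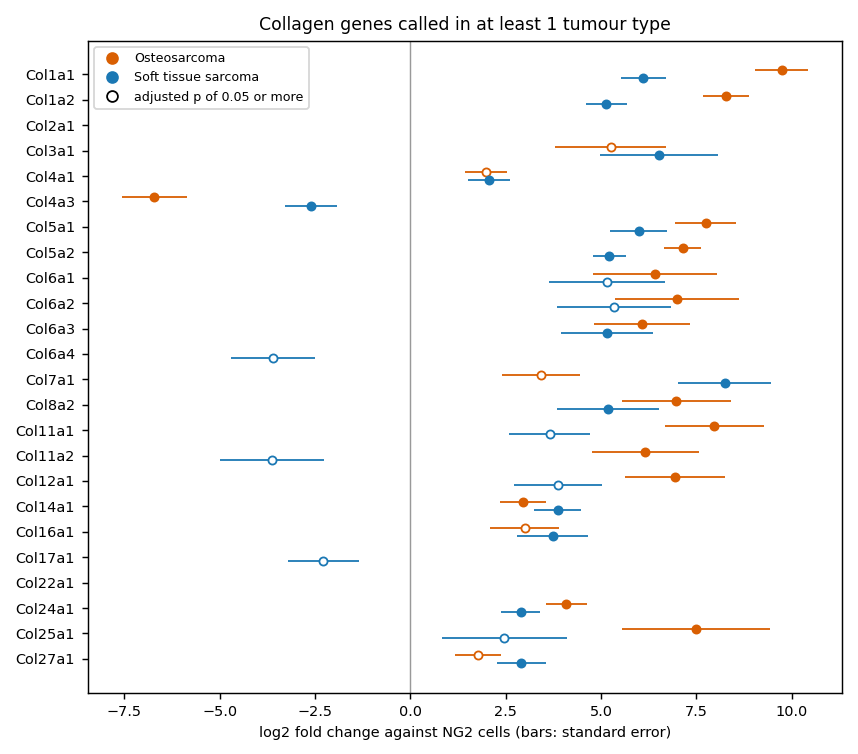
Log2 fold change against NG2 cells with its standard error for the members called in at least 1 tumour type; open circles were not called in that comparison. Values are left out where a group held 3 counts or fewer, which empties the rows of Col2a1 and Col22a1 and removes the osteosarcoma points of Col6a4 and Col17a1.

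Among the fibrillar genes, both chains of type I rose most in counts. Col1a1 (chromosome 11, 94936224 to 94953042), the alpha 1 chain, stood at 41.3 and 19.1 CPM in the NG2 cells, 32201 and 19599 in the osteosarcomas, and 2389 and 1779 in the soft tissue sarcomas. Col1a2 (chromosome 6, 4504814 to 4541544), the alpha 2 chain whose window at the RefSeq start is shown above, stood at 104 and 61.6 CPM, 33134 and 18091, and 3415 and 2414 in the same order. The 3 groups did not overlap for either gene. Col1a1 rose by 9.74 ± 0.69 (SE) on the log2 scale in osteosarcoma, 858-fold (adjusted p = 0.00419), and by 6.11 ± 0.59 in the soft tissue sarcomas, 69-fold (adjusted p = 0.00846). Col1a2 rose by 8.28 ± 0.61 in osteosarcoma, 310-fold (adjusted p = 0.00419), and by 5.14 ± 0.53 in the soft tissue sarcomas, 35.3-fold (adjusted p = 0.00863).

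Of the type V genes, whose chains join type I fibres, Col5a1 and Col5a2 rose in both tumour types. Col5a2, a type V chain, stood at 13.4 and 13 CPM in the NG2 cells, 2475 and 1255 in the osteosarcomas, and 506 and 480 in the soft tissue sarcomas. It rose by 7.14 ± 0.48 (141-fold, adjusted p = 0.00419) and by 5.22 ± 0.44 (37.4-fold, adjusted p = 0.0073). Col5a1, its partner chain, stood at 3.8 and 1.08 CPM, 356 and 684, and 156 and 154, and rose 214-fold and 63.7-fold. Neither gene's groups overlapped. The other type V chain, Col5a3, stood at 4.49 and 2.91 CPM in the NG2 cells, 4.38 and 114 in the osteosarcomas, and 73.1 and 59.6 in the soft tissue sarcomas. It was called in neither comparison. Its tibia value lay between those of the NG2 cells, and its spine value above all other libraries.

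Both type XI genes were higher in each osteosarcoma than in either soft tissue sarcoma, but neither was called between the tumour types (edgeR adjusted p = 0.161 and 0.0887). Col11a1 stood at 2.52 and 2.89 CPM in the NG2 cells, 807 and 553 in the osteosarcomas, and 62.6 and 5.42 in the soft tissue sarcomas, and rose 251-fold in osteosarcoma. Col11a2 (chromosome 17, 34039437 to 34066685) stood at 3.93 and 3.21 CPM, 485 and 24.1, and 0.252 and 0.337, and rose 71.3-fold in osteosarcoma. Both soft tissue sarcomas were below both NG2 cell libraries for Col11a2, without a call. Its rise in osteosarcoma was 2.75 on the log2 scale without osteosarcoma replicate 1 and 7.10 without replicate 2, against 6.16 with both. The call was kept in those 2 of the 6 fits without 1 library, and was lost in the fit of both groups alone (adjusted p = 0.0602).

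Type II collagen, encoded by Col2a1 (chromosome 15, 97975602 to 98004695), had 0 counts in both NG2 cell libraries. It stood at 12.3 and 53.7 CPM in osteosarcoma, and at 0.117 and 0 CPM in soft tissue sarcoma. Both osteosarcomas were above every other library, and the rise was at least 877-fold (adjusted p = 0.0162), a bound with the NG2 group set to 3 counts over its 2 libraries together. Of the 16 chondrocyte markers that are not collagens, 10 were tested and 1 rose in osteosarcoma (3 were higher by DESeq2), the cartilage proteoglycan Acan, at 1.88 and 7.86 CPM after 0 in NG2 cells. Acan also rose in soft tissue sarcoma, and Cytl1 fell in both. Matn3, a cartilage matrix protein, stood at 0.332 and 0.0229 CPM in the NG2 cells, 6.23 and 38.8 in the osteosarcomas, and 1.48 and 0.0674 in the soft tissue sarcomas, without a call, and Matn1 and Ucma of the list had 0 counts in all 6 libraries. The list summed to 65.4 and 44.5 CPM in the NG2 cells, 241 and 109 in the osteosarcomas, and 238 and 119 in the soft tissue sarcomas. Most of the soft tissue sarcoma sums came from Sox9 alone, at 227 and 113 CPM there and 160 and 16.9 in the osteosarcomas. The sums are thus no even measure of the list. The part of cartilage cells in the Col2a1 values was not tested. Col10a1, the type X collagen of hypertrophic cartilage, did not pass the filter, at 0.0948 to 0.436 CPM over all libraries, and some of its exons overlap the gene Nt5dc1 on the other strand.

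Type III collagen (Col3a1, chromosome 1, 45311538 to 45349706), the partner of type I in soft tissues, stood at 28.5 and 17.8 CPM in the NG2 cells, 64.1 and 1698 in the osteosarcomas, and 2423 and 1814 in the soft tissue sarcomas. It rose by 6.52 ± 1.54 in soft tissue sarcoma (91.5-fold, adjusted p = 0.0371) and was not called in osteosarcoma, where the tibia tumour was close to the NG2 cells and the spine tumour close to the soft tissue sarcomas. The minor fibrillar genes Col24a1 and Col27a1 were lower in level. Col24a1 stood at 0.887 and 1.28 CPM, 22.3 and 14.9, and 8.54 and 7.55, and rose 17.1-fold in osteosarcoma and 7.39-fold in soft tissue sarcoma. Col27a1 stood at 12.8 and 7.54 CPM, 17.2 and 52.6, and 59.5 and 93.4, and rose 7.51-fold in soft tissue sarcoma, with no call in osteosarcoma or between the tumour types.

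Among basement membrane collagens, 0 of 9 rose in osteosarcoma by edgeR, while 2 were higher at an unadjusted p under 0.05 and 2 by DESeq2. Col4a1, which builds the common type IV trimer with Col4a2, stood at 54 and 60.1 CPM in the NG2 cells, 107 and 344 in the osteosarcomas, and 258 and 221 in the soft tissue sarcomas. Col4a2 stood at 79.2 and 95.1 CPM, 97 and 319, and 266 and 251. All 4 tumours were above the NG2 cells for both genes, by a small margin for Col4a2 in the tibia tumour. Of the pair, only Col4a1 in soft tissue sarcoma was called, with a rise of 2.07 ± 0.55 on the log2 scale (4.2-fold, adjusted p = 0.0488). With RLE size factors in place of TMM that call was lost.

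The kidney and lung chain Col4a3 went the other way. It stood at 5.74 and 8.14 CPM in the NG2 cells, 0.0569 and 0.0711 in the osteosarcomas, and 0.973 and 1.31 in the soft tissue sarcomas. The 3 groups did not overlap, and Col4a3 was called in both comparisons. Its log2 fold change was -6.71 ± 0.85 in the osteosarcomas (105-fold lower, adjusted p = 0.00838, 5 counts in that group) and -2.60 ± 0.68 in the soft tissue sarcomas (6.06-fold lower, adjusted p = 0.0465). The call in soft tissue sarcoma was lost when no low-count filter or no scaling factor was used, and a transcript on the other strand shares 5.65% of its exon length. Its head-to-head neighbour Col4a4, 72 bases from it by start site on chromosome 1, ranged from 0.0337 to 1.01 CPM and was not called. The X-linked pair Col4a5 and Col4a6, 1309 bases apart, split the osteosarcomas: Col4a5 stood at 25.2 and 0.0356 CPM and Col4a6 at 7.39 and 0.0711. Neither was called in any comparison.

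Col7a1 (chromosome 9, 108953586 to 108984875), the anchoring fibril collagen that ties epidermis to dermis, stood at 0.0277 and 0.481 CPM in the NG2 cells, 1.44 and 4.34 in the osteosarcomas, and 83.2 and 78.3 in the soft tissue sarcomas. Both soft tissue sarcomas were far above the other 4 libraries. Col7a1 rose by 8.25 ± 1.22 in soft tissue sarcoma (304-fold, adjusted p = 0.0134). The 10 keratinocyte markers summed to 13.4 to 14.2 CPM in these tumours and 9.77 to 16.9 in the other libraries. Within that list Krt5 was at 0 in all 4 tumours, while Lgals7 stood at 2.82 and 2.80 CPM in the soft tissue sarcomas against 0 to 0.388 elsewhere, and Dsp at 1.54 and 0.202 against 0. Of the 7 tested, edgeR and DESeq2 called 0 when these tumours were set against the NG2 cells (2 were lower at an unadjusted p under 0.05), and the part of such cells in the Col7a1 values was not tested. Col15a1 and Col18a1, which border vessel basement membranes, were not called. Col18a1 stood at 2.58 and 16.6 CPM in the NG2 cells, 12 and 77 in the osteosarcomas, and 167 and 140 in the soft tissue sarcomas, where it was above all other libraries.

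The FACIT gene Col22a1 (chromosome 15, 71795795 to 72034227), whose product marks tissue junctions such as that of muscle and tendon, had the clearest difference between the tumour types. It had 0 counts in NG2 cell replicate 1 and 1 count in replicate 2 (0.0229 CPM). It stood at 174 and 63.7 CPM in osteosarcoma and at 0.789 and 1.01 CPM in soft tissue sarcoma, so the 3 groups did not overlap. It rose in both against NG2 cells (adjusted p = 0.00419 and 0.0169), and no fold is given against 1 count.

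Of the other FACIT genes, Col12a1, which coats type I fibres under load, stood at 5.18 and 3.23 CPM in the NG2 cells, 70.6 and 964 in the osteosarcomas, and 60.9 and 61.8 in the soft tissue sarcomas. It rose by 6.94 ± 1.32 in osteosarcoma (123-fold, adjusted p = 0.0204), a rise of 4.08 without osteosarcoma replicate 2. Its tibia value was near those of the soft tissue sarcomas, where Col12a1 was not called. Col14a1, a fibril binder of skin and tendon, stood at 1.39 and 0.688 CPM, 6.73 and 9.28, and 18 and 12.2. It rose by 2.95 ± 0.60 in osteosarcoma (7.72-fold, adjusted p = 0.0238, and 0.0719 in the fit of those groups alone) and by 3.86 ± 0.62 in the soft tissue sarcomas (14.5-fold, adjusted p = 0.0156). Col16a1 stood at 1.91 and 7.34 CPM, 15.9 and 58.5, and 81.3 and 42.9, and rose by 3.74 ± 0.93 in soft tissue sarcoma (13.4-fold, adjusted p = 0.041). The 3 type IX genes and Col19a1 stayed under 3 CPM in every library and Col20a1 under 6, and none was called. For Col9a3, 6.07% of the exon length overlaps the gene Tcfl5 on the other strand.

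The beaded class split by subgroup. The widely expressed type VI chains Col6a1, Col6a2 and Col6a3 rose in osteosarcoma. Col6a1 (chromosome 10, 76708792 to 76726168) stood at 25 and 10.4 CPM in the NG2 cells, 96.6 and 2910 in the osteosarcomas, and 722 and 541 in the soft tissue sarcomas. Col6a2 stood at 8.37 and 11.8 CPM, 81.3 and 2488, and 492 and 323. Col6a3 stood at 8.73 and 11.5 CPM, 93.8 and 1273, and 317 and 406. For all 3 genes every tumour was above the NG2 cells, with the tibia tumour lowest and the spine tumour highest among the tumours.

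In osteosarcoma, Col6a1 rose by 6.41 ± 1.62 (85.1-fold, adjusted p = 0.0409), Col6a2 by 6.99 ± 1.62 (127-fold, adjusted p = 0.0332) and Col6a3 by 6.08 ± 1.26 (67.6-fold, adjusted p = 0.0248). Without osteosarcoma replicate 2 these log2 rises were 2.47, 3.03 and 3.23. Each call was kept in 2 of the 6 fits without 1 library, and all were lost in the fit of both groups alone (adjusted p = 0.0722, 0.0615 and 0.0518). In soft tissue sarcoma Col6a3 rose by 5.16 ± 1.20 (35.7-fold, adjusted p = 0.0361), and Col6a1 and Col6a2 were not called. The tandem genes Col6a4, Col6a5 and Col6a6 on chromosome 9, less widely expressed type VI chains, lay 28.8 and 27.9 kb apart. Col6a4 stood at 18.3 and 13.5 CPM in the NG2 cells, 0 and 0.107 in the osteosarcomas, and 0.805 and 1.82 in the soft tissue sarcomas, again without overlap. It fell in osteosarcoma (adjusted p = 0.016, 3 counts in that group). Col6a5 and Col6a6 stayed under 2 CPM. Col28a1 was highest in the NG2 cells (6.26 and 3.87 CPM, against 0.0569 to 1.42 in the tumours) and was not called. Col26a1 did not pass the filter and had 4 counts in all, from osteosarcoma replicate 2.

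The network gene Col8a1 stood at 8.48 and 11.4 CPM in the NG2 cells, 27.7 and 1993 in the osteosarcomas, and 240 and 129 in the soft tissue sarcomas. The spine tumour was far above every other library, and the gene was called in neither comparison with NG2 cells. Its partner chain Col8a2, known with it from the corneal endothelium, stood at 0.166 and 0 CPM, 9.30 and 11.5, and 3.83 and 2.22. It rose by 6.97 ± 1.43 in osteosarcoma (125-fold, adjusted p = 0.0244) and by 5.19 ± 1.34 in the soft tissue sarcomas (36.6-fold, adjusted p = 0.0455). The NG2 group held 6 counts of Col8a2. NG2 cell replicate 2 had 0 counts of it, so no fold is given without replicate 1. Fits of the compared groups alone lost both calls (edgeR adjusted p = 0.0535 and 0.0544).

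Of the transmembrane genes, Col17a1, a hemidesmosome protein of epithelial cells, stood at 2.58 and 2.57 CPM in NG2 cells and had 0 counts in both osteosarcomas. It fell at least 69.4-fold there (adjusted p = 0.0173, against 3 counts over the group), and stood at 0.319 and 0.741 CPM in soft tissue sarcoma. Col25a1, a neuronal collagen that acts in muscle innervation, stood at 0.388 and 0 CPM in the NG2 cells, 55.3 and 13.2 in the osteosarcomas, and 1.85 and 0.202 in the soft tissue sarcomas. It rose by 7.49 ± 1.94 in osteosarcoma (179-fold, adjusted p = 0.0433, and 0.0554 in the fit of those groups alone). Both osteosarcomas were above all other libraries. The call was kept in 1 of the 5 fits without 1 library that gave a fold change, that without osteosarcoma replicate 2. Col13a1 and Col23a1 were not called, at 0.0839 to 6.44 and 0.642 to 11.4 CPM.

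Between the tumour types, Col22a1 was the only member called, 2.38% of the tested members beside 0.142% of all genes tested (27 of 19024), with 0.0841% of all genes called higher and 0.0578% lower. It was 132-fold lower in soft tissue sarcoma than in osteosarcoma (log2 fold change -7.05 ± 0.72, adjusted p = 0.0459, 77 counts against 10958). The call was kept without either osteosarcoma (-6.11 and -7.60) and lost without any of the other 4 libraries (-7.22 to -6.87) and in a fit of the tumours alone. In all, 18 of the 42 tested members had an unadjusted p under 0.05 by edgeR, beside 3022 of the 19024 genes. DESeq2 called 15 members, and edgeR without a low-count filter called 7. The last section gives the counts over all genes beside these 2. The median log2 fold change of the members was -0.93 beside -0.03 over all genes. Libraries did not overlap for 16 of the 42 tested members lower and 11 of the 42 higher in soft tissue sarcoma, beside 24.5% and 25.8% of all genes. The higher members were thus near the share of all genes. Of the 11 fibrillar genes, 8 were lower without overlap, Col1a1, Col1a2, Col2a1, Col5a1, Col5a2, Col11a1, Col11a2 and Col24a1, and Col3a1 and Col27a1 were higher.

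The osteosarcoma libraries were far apart for many collagens, which bears on each value given above for them. Of the 42 tested members, 13 (31%) differed at least 10-fold between the 2 osteosarcomas with at least 1 CPM in the higher one and values under 3 counts set to 3, beside 4.68% of all genes tested. This limit was chosen after the values were seen, and the counts are a description. The spine tumour was higher for 10 of them (beside 3.49% of all genes): Col3a1 by 26.5-fold, Col5a3 by 26-fold, Col6a1 by 30.1-fold, Col6a2 by 30.6-fold, Col6a3 by 13.6-fold, Col8a1 by 71.8-fold, Col9a1 by 10.9-fold, Col12a1 by 13.6-fold, Col15a1 by 12-fold, and Col28a1 with 3 counts in the tibia tumour and 40 in the spine tumour. The tibia tumour was higher for 3 (beside 1.19%): Col11a2 by 20.1-fold, and Col4a5 and Col4a6, which had 1 and 2 counts in the spine tumour against 1329 and 390. In the NG2 cells 1 member (Col6a6) was this far apart, beside 3.45% of all genes, and in the soft tissue sarcomas 2 (Col4a6 and Col11a1), beside 1.08%.

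Marker lists differed between these tumours as well. Genes at large also leaned to the spine tumour at the 10-fold limit (3.49% higher there against 1.19% in the tibia tumour). The share of all genes higher there at any fold was not counted. Fibroblast markers that are not collagens summed to 4310 CPM in the tibia tumour and 8240 in the spine tumour, where 13 of the 16 were higher, with Fn1 at 249 and 3051 CPM and Postn at 29.4 and 1870 CPM, but Pdgfra at 1715 and 114 CPM. Macrophage and osteoclast markers summed to 2210 and 21400 CPM, and 9 of the 14 were higher in the spine tumour. Among these were the osteoclast genes Acp5, at 395 and 7465 CPM, and Ctsk, at 276 and 6018. The macrophage genes of the list went both ways. Cd68, at 294 and 979 CPM, and Csf1r, at 158 and 380, were higher in the spine tumour. Adgre1, Cd14, C1qa, C1qb and Mrc1 were lower there, C1qb at 399 and 137 CPM. Skeletal muscle fibre markers summed to 15 and 1000 CPM, mostly the actin gene Acta1 at 3.77 and 859 CPM. Endothelial markers summed to 250 and 843 CPM, and all 13 were higher in the spine tumour. Osteoblast markers summed to 21800 and 29400 CPM, with 11 of the 14 higher in the tibia tumour, Bglap at 1235 and 37.8 CPM among them, and Ibsp, Alpl and Mepe higher in the spine tumour, Ibsp at 439 and 17589 CPM. In the other cell type lists, 6 chondrocyte markers were higher in the tibia tumour and 6 in the spine tumour. These counts were 3 and 11 for pericyte and mural, 3 and 9 for lymphocyte, and 3 and 2 for keratinocyte markers. Schwann cell markers were higher in the tibia tumour for 2 and in the spine tumour for 10, but summed to 252 and 152 CPM. Bone site and library cannot be told apart here, and the part of these cells in the collagen gap was not tested.

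**Figure D4:**
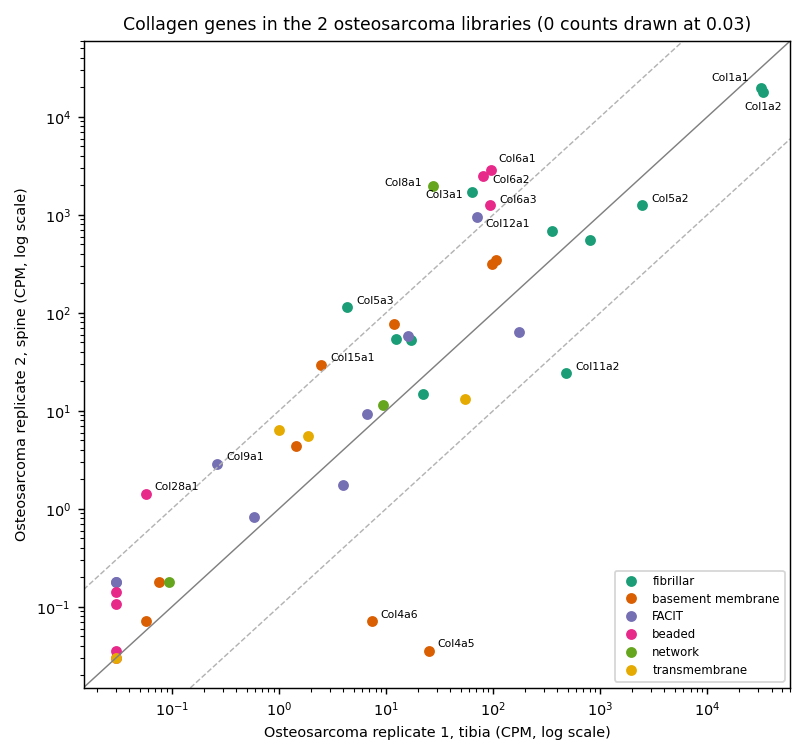
Normalised read count (CPM, log axes) of each collagen gene in the tibia osteosarcoma (x) and the spine osteosarcoma (y), coloured by class, with 0 counts drawn at the edge. The solid line marks equal values and the dashed lines 10-fold; 10 of the tested genes with at least 1 CPM lie above the upper line and 3 below the lower one.

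Partner chains of a trimer, and Col1a1 with Col3a1 across types, were compared as ratios of counts per kilobase of exon. Each library was taken alone. No test was run, since 2 libraries a group are too few for a permutation test to pass a threshold of 0.05. The ratio of Col1a1 to Col1a2 was 0.754 and 0.588 in NG2 cells, 1.32 and 1.40 in soft tissue sarcoma, and 1.84 and 2.05 in osteosarcoma. With the length of the longest coding transcript in place of all exons, it was 0.359 and 0.28, 0.631 and 0.665, and 0.876 and 0.977. The order of the groups was the same with both lengths, without overlap, but whether Col1a1 exceeds Col1a2 depends on the length used. The ratio of Col4a1 to Col4a2 was 0.604 and 0.56 in NG2 cells, 0.861 and 0.783 in soft tissue sarcoma, and 0.977 and 0.956 in osteosarcoma, in the same order.

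The type VI ratio of Col6a1 to Col6a2 was 2.26 and 2.22 in the osteosarcomas although both genes differed about 30-fold between them (30.1-fold and 30.6-fold). That of Col6a1 to the third chain, Col6a3, was not so close, at 2.81 in the tibia tumour and 6.24 in the spine tumour. The ratio of Col11a1 to Col11a2 was 0.898 in the tibia tumour and 12.4 in the spine tumour. The ratio of Col1a1 to Col3a1 was 1.47 in both soft tissue sarcomas, 2.16 and 1.61 in NG2 cells, and 752 and 17.3 in osteosarcoma. With the longest coding transcript as length, it was 0.925 and 0.92, 1.36 and 1.01, and 472 and 10.8. Whether Col1a1 exceeds Col3a1 in soft tissue sarcoma thus depends on the length used. Per kilobase of all exons, Col5a1 to Col5a2 ranged from 0.0935 to 0.616 over all libraries. The lowest value was in the NG2 cells and the highest in the spine tumour.

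**Figure D5:**
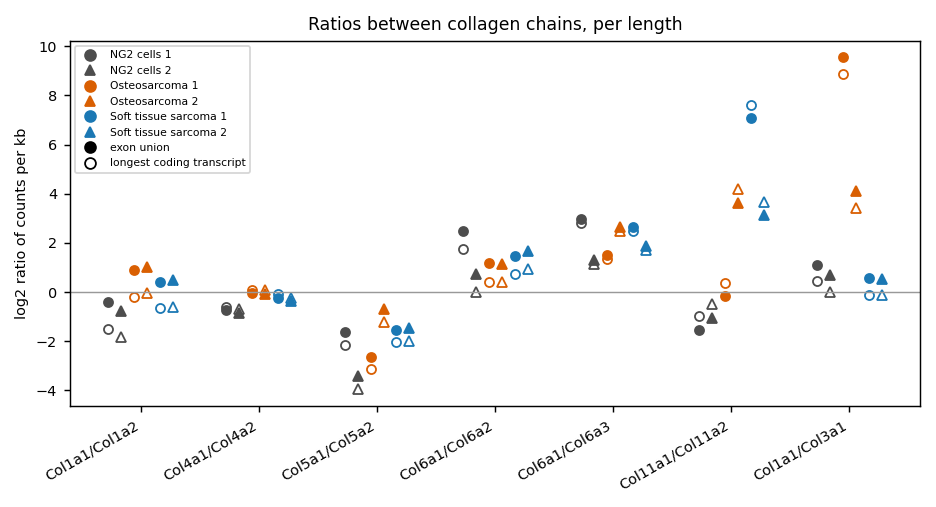
Log2 ratio of counts per kilobase between collagen chains in each library, with filled symbols for the length of all exons and open symbols for the longest coding transcript. The Col1a1 to Col1a2 ratio is lowest in the NG2 cells and highest in the osteosarcomas with both lengths.

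Genes that make, bind and degrade collagen were counted from lists drawn up with earlier results of these data known. Over all genes tested, 10.5% rose and 11% fell in osteosarcoma (median log2 fold change 0.04), and 9.89% rose and 9.4% fell in soft tissue sarcoma (median 0). Of 37 genes of collagen biosynthesis and assembly, all tested, 24 rose and 0 fell in osteosarcoma by edgeR (median log2 fold change 3.66; 2 were lower at an unadjusted p under 0.05 and by DESeq2) and 21 rose and 1 fell in soft tissue sarcoma (2.44). Serpinh1, the collagen chaperone HSP47, stood at 23.3 and 17.3 CPM in the NG2 cells, 632 and 714 in the osteosarcomas, and 167 and 128 in the soft tissue sarcomas, and rose 33.1-fold and 7.26-fold (adjusted p = 0.00419 and 0.00863). P3h1, a prolyl 3-hydroxylase of type I chains, stood at 2.38 and 4.15 CPM, 181 and 146, and 36.2 and 44.5, and rose 50-fold and 12.3-fold (adjusted p = 0.00419 and 0.00863). Plod2, the lysyl hydroxylase of cross-link sites, rose 51.8-fold and 10.7-fold (adjusted p = 0.0048 and 0.0108). For these genes the levels ran in the order NG2 cells, soft tissue sarcoma, osteosarcoma. The gene that fell in soft tissue sarcoma was Fmod (74.4-fold, adjusted p = 0.0252), a small proteoglycan that binds fibrils, at 129 and 25.1 CPM in the NG2 cells, 1889 and 527 in the osteosarcomas, and 1.59 and 0.404 in the soft tissue sarcomas. Between the tumour types edgeR called 0 of these genes, while DESeq2 called 3 higher and 11 lower in soft tissue sarcoma (3 and 12 at an unadjusted p under 0.05).

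Of 14 collagen receptors and uptake genes, 13 were tested. In osteosarcoma 5 rose and 4 fell (median 1.22), and in soft tissue sarcoma 4 rose and 2 fell (median 1.38). Mrc2, an endocytic receptor that takes up collagen, stood at 0.610 and 0.0917 CPM in the NG2 cells, 96.6 and 125 in the osteosarcomas, and 93 and 85.6 in the soft tissue sarcomas, and rose 321-fold and 259-fold (adjusted p = 0.00599 and 0.00863). Itga11, an integrin chain that binds fibrillar collagen, rose 25.8-fold and 4.90-fold (adjusted p = 0.00761 and 0.0312). Ddr2, a receptor tyrosine kinase for fibrillar collagen, rose 10.4-fold and 11.5-fold (adjusted p = 0.00941 and 0.011). Adgrg1, an adhesion receptor that binds type III collagen, fell 24.2-fold and 43.1-fold (adjusted p = 0.0093 and 0.00965).

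Of 15 degradation genes, all tested, 9 rose and 1 fell in osteosarcoma (median 5) and 7 rose and 1 fell in soft tissue sarcoma (median 4.09). Fap, a serine protease of activated fibroblasts, rose 29.3-fold and 4.93-fold (adjusted p = 0.00616 and 0.0249). Mmp13, a collagenase of bone and cartilage, stood at 0.582 and 0 CPM in the NG2 cells, 23792 and 5232 in the osteosarcomas, and 36 and 45 in the soft tissue sarcomas, and rose in both (adjusted p = 0.00866 and 0.0294). Mmp14, a membrane-bound collagenase, rose 55.7-fold and 25.2-fold (adjusted p = 0.00934 and 0.0153). The inhibitor Timp1 rose 145-fold and 89.3-fold (adjusted p = 0.0103 and 0.0141), and the gene that fell was the inhibitor Timp3 (7.85-fold and 9.12-fold, adjusted p = 0.027 and 0.0252). Ctsk and Mmp9, which are also in the macrophage and osteoclast list, were higher in the spine tumour, Mmp9 at 200 and 5124 CPM in the tibia and spine osteosarcomas. In the bone marker list, all 14 osteoblast genes rose in osteosarcoma (median 9.48) and 3 rose and 1 fell in soft tissue sarcoma. Sp7, the osteoblast transcription factor, stood at 134 and 84.6 CPM in osteosarcoma and had 0 counts in both soft tissue sarcomas, while Sparc, a bone matrix protein also in the biosynthesis list, rose 34.3-fold and 6.52-fold (adjusted p = 0.00447 and 0.0118).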

How the data were processed

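Polyadenylated RNA of 6 mouse libraries was measured in 3 groups of 2. Per the labels' protocols, about 10 ng of RNA was copied from an oligo(dT) primer and amplified in 20 PCR cycles. The authors deposited raw counts per gene. The submitters' processing notes name STAR, HTSeq, cutadapt, Trim Galore, FastQC and DESeq2, and the builds GRCm38 and mm10. The strand setting and the annotation release were not given in the sources used here, so overlapping genes are uncertain. Of 38561 IDs, 36639 matched GENCODE M21.

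From the deposited counts, edgeR 4.0.16 (R 4.3.3) fitted all genes of all 6 libraries with TMM scaling, a filterByExpr low-count filter (at least 10, and 15 in total, leaving 19024 genes) and quasi-likelihood F tests with 3 residual degrees of freedom. Benjamini-Hochberg adjusted p under 0.05 was a call. "Rose" and "fell" are used of called genes. A standard error is the log2 fold change divided by the square root of F. CPM are scaled by TMM. A group with 0 counts was set to 3 counts for a bound, and no fold is given against 1 to 3 counts. The code was tested on simulated data. Full statistics are given for up to 3 called members per class and comparison in order of p and for set members, and up to 4 genes per list were named in order of p in osteosarcoma. Of the list genes, Fmod, Timp3, Mmp9, Ctsk, Matn1, Ucma, Dsp and those named for the osteosarcoma gap fall outside that order and were chosen after their values were seen. Members and lists were chosen with earlier results of these data known. Alternatives included DESeq2 1.42.0. Columns of other samples not used numbered 0.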

Additional observations from a re-analysis of the deposited data

Results flagged for a closer look

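Col22a1 was lower in soft tissue sarcoma than in osteosarcoma by a test of the difference itself, with a log2 fold change of -7.05 (edgeR adjusted p = 0.0459). It stood at 174 and 63.7 CPM in the osteosarcomas and at 0.789 and 1.01 CPM in the soft tissue sarcomas. Groups of 2 libraries are too small for a test of single outlying libraries, so the gap between the osteosarcomas is described only in the report.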

How the results depend on the processing

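With 2 libraries per group, the number of calls moved with the fit more than the directions did, and the directions of the members called against NG2 cells were kept in each alternative that gave a value. For osteosarcoma against NG2 cells, 19 collagens and 4086 genes were called; a fit of those groups alone called 12 and 2083, DESeq2 6894 genes, the replicate block 16 and 2660, and fits without 1 library 8 to 27 and 1278 to 3429. For soft tissue sarcoma against NG2 cells, 15 and 3671 became 27 and 6439 by DESeq2, 26 collagens in the fit of those groups alone, 11 and 2209 with the replicate block, and 0 to 26 and 0 to 4694 without 1 library. Between the tumour types, 1 and 27 became 7 and 409 with no filter, 80 genes with a stricter filter, 15 and 1916 by DESeq2, 0 and 0 in the fit of those groups alone, 0 and 8 with the block, and 0 to 7 and 0 to 315 without 1 library. Same-numbered libraries did not deviate together (r = 0.049, -0.00277 and -0.0864), so the numbers do not pair them, and the labels give no pairing. With the block, the calls of Col6a1, Col6a2 and Col11a2 in osteosarcoma, of Col3a1, Col4a1, Col4a3, Col8a2 and Col27a1 in soft tissue sarcoma, and of Col22a1 between the tumour types were lost. Where a group is left with 1 library, it is assumed to vary like the others.

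RLE, upper quartile or no scaling factors, and scaling without the collagens, gave 19 to 21 and 14 to 15 collagen calls against NG2 cells. Omitting scaling factors raised the median of all genes in soft tissue sarcoma by 0.15 on the log2 scale. Over the 3 comparisons in the order above, 10, 9 and 2 values of called members lost their call in the other alternatives and 161, 126 and 7 kept it. In the fits without 1 library 38, 48 and 4 lost it and 76, 42 and 2 kept it. A change of length shifts a ratio equally in all 6 libraries, and the shift is given for the groups where it passed the spread between replicates. With the longest coding transcript as length, mean log2 ratios moved from -0.59 to -1.66, from 0.96 to -0.11 and from 0.44 to -0.62 for Col1a1 to Col1a2 in NG2 cells, osteosarcoma and soft tissue sarcoma, and from -0.78 to -0.64, from -0.04 to 0.08 and from -0.28 to -0.15 for Col4a1 to Col4a2. They moved from -1.50 to -2.02 for Col5a1 to Col5a2 in soft tissue sarcoma, from 1.16 to 0.42 and from 1.58 to 0.84 for Col6a1 to Col6a2 in osteosarcoma and soft tissue sarcoma, and from -1.28 to -0.74 for Col11a1 to Col11a2 in NG2 cells. For Col1a1 to Col3a1, the log2 ratios of single libraries moved from 1.11 and 0.69 to 0.44 and 0.02 in NG2 cells. In soft tissue sarcoma they moved from 0.56 and 0.55 to -0.11 and -0.12. Without mitochondrial and immunoglobulin genes, the collagen shares were 0.0448%, 0.0436%, 7.33%, 5.48%, 1.24% and 0.993%.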
